A study of Homo sapiens with 48 samples.

Results

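The ER membrane protein complex (EMC) is an insertase of the endoplasmic reticulum (ER), and the mRNAs of 9 of its subunits were followed here in AMO1 cells, a human multiple myeloma line from a plasmacytoma, while IRE1 or XBP1 was silenced. The 9 genes (EMC1, EMC2, EMC3, EMC4, EMC6, EMC7, EMC8, EMC9 and EMC10) were found by symbol among the 58302 genes of the count table, and 9 of 9 were present. The set was selected on the fall of EMC7 after IRE1 silencing in these same libraries, so every value of EMC7 in shIRE1 cells chose the set and is given as a description without a test. The other 8 members were taken by name. MMGT1, which encodes EMC5, is the subunit outside the set and is described beside it.

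The cells were clones that carry shRNAs induced by doxycycline (Dox). Clones 1 and 3 carried shRNAs against IRE1 (genotype IRE1 sh7,8,9), and clones 1 and 18 carried shRNAs against XBP1 (genotype XBP1 sh4,6,7). Each clone received 0.2 µg/ml Dox for 0, 24, 48 or 72 h in 3 replicate cultures, which gave 16 groups and 48 libraries, all of them in the same parental line and medium. A line with a non-targeting shRNA was not analysed here, so Dox itself and the expression of any shRNA are part of each change. Both clones against a target carried the same shRNAs. An effect of these sequences on other mRNAs therefore cannot be told apart from loss of the target. The 24, 48 and 72 h comparisons of a clone share its 3 libraries at 0 h and are not independent of each other.

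The EMC places transmembrane helices of newly made proteins into the ER membrane, both tail-anchored proteins and some helices of multipass proteins. EMC3 and EMC6 form the membrane core of the insertase, with EMC3 related to the bacterial YidC and mitochondrial Oxa1 insertases, and EMC5 and EMC4 lie in the membrane beside them. EMC2 and either of the paralogs EMC8 and EMC9 face the cytosol, whereas EMC1, EMC7 and EMC10 reach into the lumen. IRE1 (gene ERN1) is an ER-stress sensor whose RNase splices the XBP1 mRNA, and the resulting factor XBP1s raises many genes of ER protein handling in plasma cells.

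The libraries held between 19177855 and 40767202 counts (median 30776246.5), and 1 count was worth at most 0.0521 CPM (counts scaled to library size) in any of them. CPM values below were scaled with TMM factors over the 48 libraries. ERN1 mRNA fell in shIRE1 clone 3, with log2 changes of -1.60 ± 0.05, -1.86 ± 0.05 and -1.82 ± 0.05 at 24, 48 and 72 h. In clone 1, where it was already lower at 0 h, the changes were -0.27 ± 0.04, -0.66 ± 0.04 and -0.58 ± 0.04 (edgeR quasi-likelihood test, largest adjusted p = 9.97e-06). XBP1 mRNA changed by -1.91 ± 0.07, -2.24 ± 0.07 and -2.32 ± 0.07 in shXBP1 clone 1. The changes in clone 18 were -1.44 ± 0.08, -1.94 ± 0.09 and -2.16 ± 0.09 (largest adjusted p = 2.23e-06). One library went against its label: shXBP1 clone 18, 72 h, replicate 3 was nearer to clone 1 at 103 of the 103 genes that separate both shXBP1 clones by at least 2 on the log2 scale, and no other shXBP1 library was nearer to the other clone at more than 2 of them. No such genes separated the shIRE1 clones, so their libraries could not be checked in this way. Clone 18 values at 72 h hold that library unless said otherwise, and values without it follow where they moved by over 1.5 times or a call changed. Each target also changed under the other shRNA. XBP1 was called lower at 48 and 72 h in both shIRE1 clones, and at 24 h higher in clone 1 and not in clone 3. ERN1 was called higher at each time in shXBP1 clone 1. In clone 18 ERN1 was not called at 24 h and was lower at 48 and 72 h (85.4% of its 0 h mean at 72 h without that library). Plasma cell markers were abundant, with SDC1 at 5130 to 15200 CPM, and their sum over 7 genes was 14800 to 17500 CPM at 0 h and 8320 to 11900 after Dox in the shIRE1 clones, against 17900 to 18600 and 13200 to 16800 in the shXBP1 clones. The sum hides single markers. In shXBP1 clone 1, 3 were called higher and 3 lower at 24 and at 48 h, and 3 and 2 at 72 h. In clone 18, 1 was higher and 1 lower at 24 h, 1 and 2 at 48 h and 0 and 3 at 72 h. At 72 h in the shIRE1 clones, 6 of 7 were lower in clone 1 and 7 of 7 in clone 3. Shares of all genes called are given below for each clone. The defining B cell markers CD22 and PAX5 had a median of 0 CPM, and the 4 B cell markers together rose from at most 0.231 to at most 2.01 CPM in the shIRE1 clones. The 4 T cell markers, in essence CD3E alone, lay at 5.63 to 7.97 CPM at 0 h and 14.5 to 17.3 after Dox in the shIRE1 clones and at 5.33 to 11 and 6.17 to 13.5 in the shXBP1 clones, and 4 myeloid markers stayed at or below 0.804 CPM. The part of these shifts in the results below was not tested. In such bulk samples, fewer cells with an mRNA and less of it in each cell cannot be told apart.

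Before Dox, EMC7 and EMC4 had the highest levels per length and EMC6 the lowest. Levels of different genes were compared as CPM per kb of the canonical GENCODE 44 transcript, as means of the 4 clones at 0 h. EMC7 stood at 78.0, EMC4 at 66.1, EMC3 at 37.1, EMC8 at 24.1, EMC1 at 23.7, MMGT1 at 20.2, EMC2 at 12.9, EMC9 at 12.5, EMC10 at 8.6 and EMC6 at 1.15 CPM per kb. The clone means overlapped between neighbours in most of this order: EMC7 spanned 71.4 to 90.6 and EMC4 57.9 to 74.9, EMC8 spanned 18.2 to 28.3 around EMC1 (20.7 to 26.1) and MMGT1 (19.4 to 21.6), and EMC2 (9.65 to 16.3) enclosed EMC9 (11.2 to 14.4). EMC3 (32.7 to 39.6) lay apart from EMC4 above it and from EMC8 below it, and EMC6 (0.711 to 1.76) lay apart from EMC10 (6.05 to 12.3). The level of EMC10 rests on a canonical transcript of 9439 bases, so it would be higher per length if a shorter form prevailed. EMC6 had only 6 to 43 counts in a library. Of its canonical transcript 86.6% is also exon of P2RX5-TAX1BP3 on the opposite strand. The kit was stranded, but how the counting used the strand is not given in the sources used here, so EMC6 is uncertain to that extent.

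**Figure D1:**
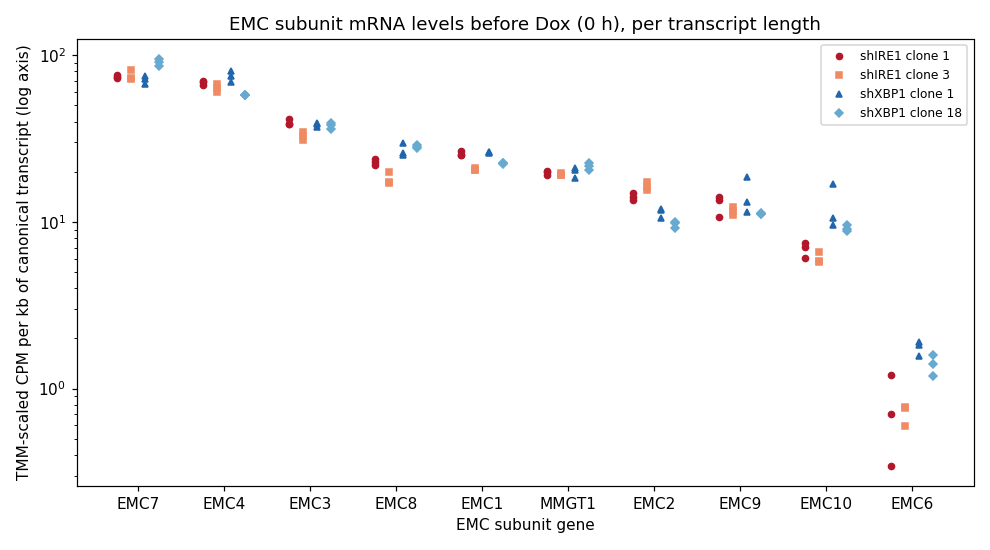
Levels of the 9 EMC genes and MMGT1 at 0 h of Dox, as TMM-scaled CPM per kb of canonical transcript on a log axis, with 1 point per library, 3 for each clone. EMC7 has a mean of 78.0 and EMC6 of 1.15 CPM per kb over the 4 clones.

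Between 4 and 7 members were called lower after Dox in each comparison of the shIRE1 clones and of shXBP1 clone 1, and at most 2 in shXBP1 clone 18. Calls are an adjusted p under 0.05 in the edgeR quasi-likelihood test over all genes (Benjamini-Hochberg), with the 12 libraries of a clone in a fit. In shIRE1 clone 1, 5 of the 8 members other than EMC7 were lower and 0 were higher at 24 h, where 29.0% of the 17154 genes tested were lower and 32.4% higher. At 48 h there were again 5 lower and 0 higher (all genes, 31.5% and 33.9%), and at 72 h 6 lower and 0 higher (31.1% and 32.5%). In shIRE1 clone 3, 4 of the 8 were lower and 1 (EMC10) was higher at 24 h, against 23.3% and 22.8% of all 17204 genes. At 48 h 5 were lower and 0 higher (31.6% and 31.6%), and at 72 h also 5 and 0 (30.5% and 29.7%). The median log2 change of the 8 members was -0.33, -0.53 and -0.60 in clone 1 and -0.13, -0.39 and -0.32 in clone 3 at 24, 48 and 72 h, whereas the median over all genes lay between 0.02 and 0.04 in these 6 comparisons.

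In shXBP1 clone 1, 4 of the 9 members were lower and 0 higher at 24 h (all 16603 genes, 12.8% lower and 13.9% higher), 7 were lower and 1 (EMC2) higher at 48 h (15.5% and 16.6%), and 7 were lower and 0 higher at 72 h (16.8% and 16.8%). These counts depended on single libraries: 2 instead of 4 members were called at 24 h without replicate 1 at 0 h or without replicate 3 at 24 h, 5 instead of 8 at 48 h without replicate 1 at 0 h or replicate 2 at 48 h, and 4 instead of 7 at 72 h without replicate 2 at 72 h. In shXBP1 clone 18, 0 of 9 were called at 24 h by edgeR (all 16860 genes, 1.30% lower and 0.291% higher) and 0 by DESeq2 or limma, with EMC1 and EMC10 the 2 that were lower at an unadjusted p under 0.05. At 48 h edgeR and limma called 0 (3.50% and 2.28%), and EMC10 was the 1 lower at an unadjusted p under 0.05 and the 1 called by DESeq2. EMC10 and EMC7 were lower at 72 h (5.55% and 4.41%). Without the library that went against its label, EMC10 was the 1 member called in clone 18 at 48 and at 72 h. In that fit 7.16% of all genes were lower and 5.78% higher at 48 h, and 4.48% and 3.09% at 72 h. The median of the 9 members at 72 h was -0.09. At 24 h 0 of 9 were called (3.33% and 1.46%), with 4 lower at an unadjusted p under 0.05. The median log2 change of the 9 members was -0.25, -0.30 and -0.38 in clone 1 and -0.12, -0.05 and -0.15 in clone 18, with the median of all genes between -0.01 and 0.002. In the comparisons of these 4 clones with 0 members called higher by edgeR, DESeq2 and limma also called 0 higher. At an unadjusted p under 0.05, 1 (EMC2, shXBP1 clone 1, 72 h) was higher. Other edgeR settings called some members higher. With no filter on low counts, EMC10 was higher in shIRE1 clone 3 at 48 h (0.23, adjusted p = 0.00606). So was EMC6 (0.77, adjusted p = 0.0496). With only the 6 libraries compared, EMC10 was higher there (0.22, adjusted p = 0.0115). In that setting EMC2 was higher in shXBP1 clone 1 at 72 h (0.21, adjusted p = 0.0347).

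**Figure D2:**
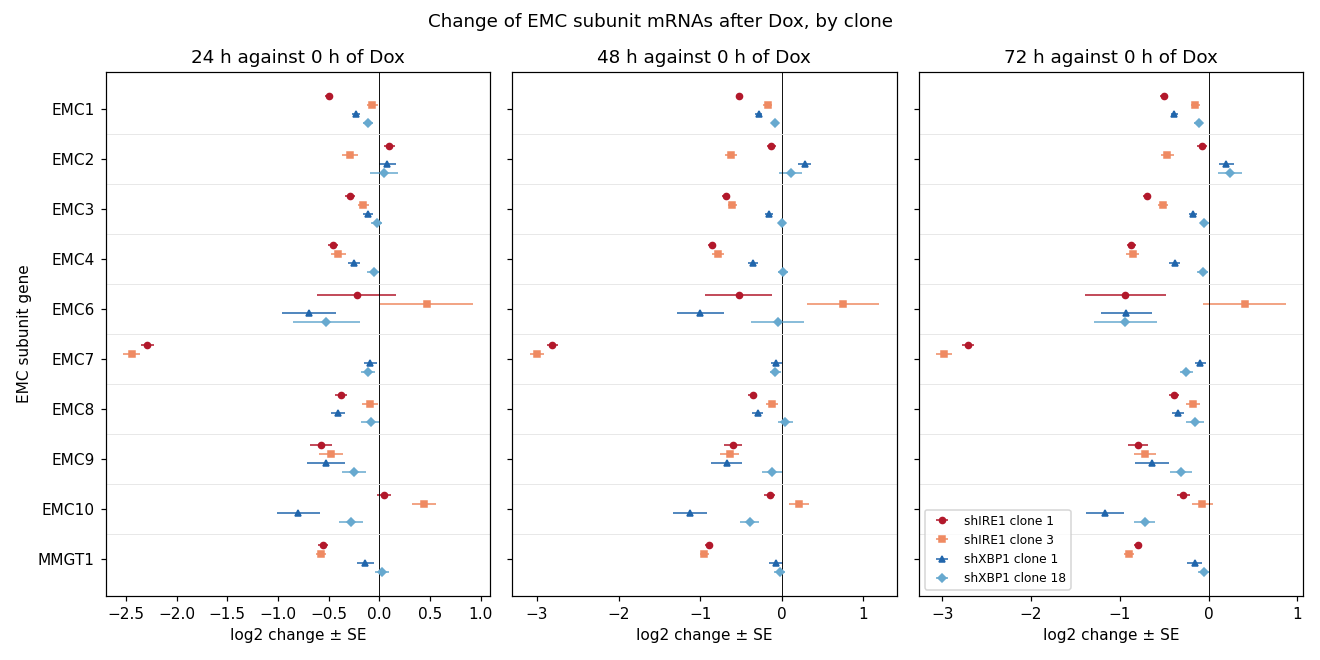
log2 change of each EMC gene and of MMGT1 at 24, 48 and 72 h of Dox against 0 h, with 1 point per clone and bars of 1 SE of the fit. EMC7 stands between -2.29 and -3.00 in the shIRE1 clones and between -0.25 and -0.06 in the shXBP1 clones, and EMC10 is lowest in shXBP1 clone 1.

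EMC7, a subunit with a domain in the ER lumen, was the member on which the set was chosen. In shIRE1 clone 1 its libraries held 79.4, 81.6 and 78.0 CPM at 0 h, 15.9, 18.2 and 15.3 at 24 h, 11.2, 11.7 and 11.0003 at 48 h and 11.4, 12.9 and 12.5 at 72 h. In shIRE1 clone 3 they held 86.6, 77.9 and 77.1 CPM at 0 h, 15.5, 13.8 and 15.9 at 24 h, 9.88, 11.2 and 9.69 at 48 h and 11.2, 10.5 and 9.67 at 72 h. All 18 libraries after Dox lay under 19 CPM and all 6 at 0 h above 77 CPM, so the groups did not overlap. This left 20.7%, 14.2% and 15.4% of the 0 h mean in clone 1 and 18.8%, 12.8% and 13.0% in clone 3 (log2 change -2.29 ± 0.06, -2.82 ± 0.07 and -2.71 ± 0.07, and -2.44 ± 0.09, -3.00 ± 0.09 and -2.98 ± 0.09). EMC7 at 24 h was above EMC7 at 48 and 72 h in both clones. As the values chose the set, they carry no test. How many of all genes have groups without overlap was not counted, here or for the members below.

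In the shXBP1 clones, whose values the choice did not use, EMC7 was at 92.8% to 97.0% of its 0 h mean in 5 of 6 comparisons and at 84.1% in clone 18 at 72 h (88.6% without the library that went against its label). shXBP1 clone 1 held 71.9, 80.2 and 76.8 CPM at 0 h, 77.7, 68.0 and 74.8 at 24 h, 70.5, 78.7 and 72.9 at 48 h and 72.2, 72.4 and 74.2 at 72 h, and all 3 Dox groups overlapped the 0 h group. The log2 changes were -0.09 ± 0.06, -0.06 ± 0.06 and -0.09 ± 0.06 (edgeR, adjusted p = 0.306, 0.474 and 0.290). shXBP1 clone 18 held 92.1, 101 and 97.3 CPM at 0 h, 88.7, 91.5 and 89.5 at 24 h, 90.3, 95.9 and 91.1 at 48 h and 83.4, 88.2 and 72.8 at 72 h. There the log2 changes were -0.12 ± 0.07, -0.08 ± 0.07 and -0.25 ± 0.07 (adjusted p = 0.520, 0.586 and 0.0398), and the 72 h libraries all lay under the 0 h libraries. The lowest 72 h value was that of the library that went against its label. Without it the 72 h change was -0.17 (adjusted p = 0.077), and the call was also lost without any of the 3 libraries at 0 h, with an adjusted p up to 0.164.

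The EMC7 gene lies on the minus strand of chr15:34084017-34101862 (GRCh38, GENCODE 44), with 5 exons in its canonical transcript of 1069 bases. The 250 bases before its RefSeq start (chr15:34101863-34102112, minus strand, GRCh38.p14) are shown because the fall of EMC7 is the largest in the set. They held no match on either strand to TGACGT, the core of the unfolded protein response element, to CCACGT, the core of sites bound by XBP1s and related factors, or to the ER stress response element, CCAAT and CCACG with 9 bases between them. Capitals would mark such matches. Of 35116 RefSeq promoter windows of 250 bases, 7.1% held TGACGT, 8.37% CCACGT and 0.074% the ER stress response element.
EMC7: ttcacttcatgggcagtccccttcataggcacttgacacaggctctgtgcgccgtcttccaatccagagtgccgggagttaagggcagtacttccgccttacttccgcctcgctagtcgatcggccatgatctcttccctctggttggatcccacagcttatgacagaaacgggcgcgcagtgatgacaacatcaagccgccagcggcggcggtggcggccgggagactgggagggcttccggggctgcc

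The genes with the time course most like that of EMC7 were MAGT1, DSN1, COPS3, PAICS and ZFAND6. The measure was Pearson's r over the 48 libraries of log2 CPM minus the clone mean, among 9498 genes with a mean log2 CPM over 3. It was 0.982 for MAGT1, 0.981 for DSN1 and COPS3, and 0.98 for PAICS and ZFAND6. This measure leaves out the size of a change. In shIRE1 clone 1 COPS3 had means of 210 CPM at 0 h and 115 at 72 h, and DSN1 of 40.8 and 18.3. PAICS had 551 and 221, and ZFAND6 had 118 and 28.4. MAGT1, a subunit of the ER oligosaccharyltransferase that is also linked to magnesium transport, had a mean of 166 CPM at 0 h and 14.0 at 72 h in shIRE1 clone 1 and of 133 and 13.7 in clone 3, against 176 and 130 in shXBP1 clone 1 and 180 and 130 in shXBP1 clone 18. Within the complex r with EMC7 was 0.948 for MMGT1, 0.882 for EMC4, 0.835 for EMC3, 0.68 for EMC9, 0.669 for EMC1, 0.515 for EMC8, 0.463 for EMC2 and 0.0126 for EMC10, whereas EMC6 was under the level needed. These values share clones, times and depth, and the shIRE1 part of EMC7 chose the set, so they are descriptions only.

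**Figure D3:**
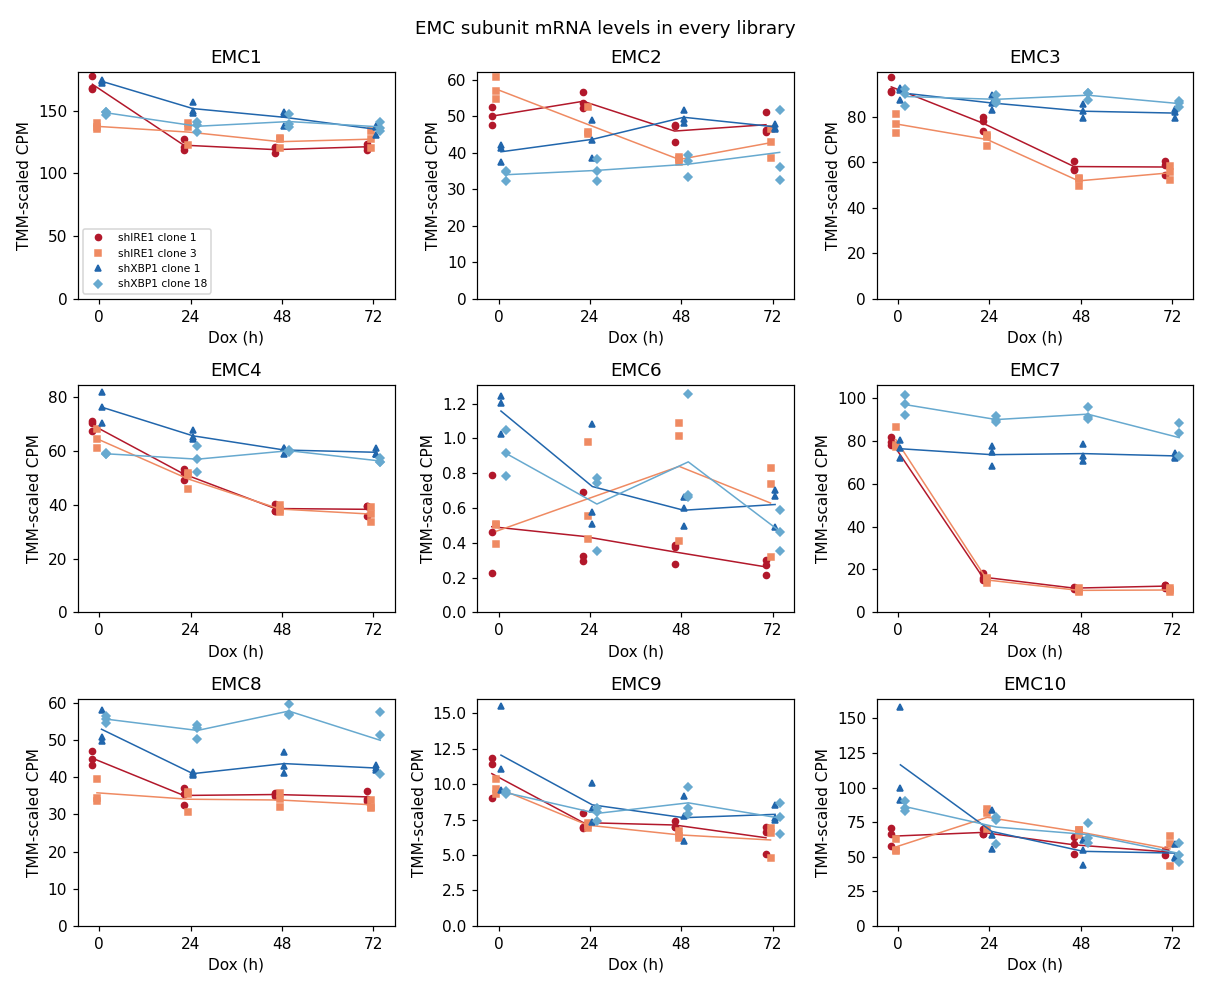
TMM-scaled CPM of the 9 members in every library by hours of Dox, with 1 point per library, lines through the group means, and clones shifted sideways. EMC7 drops under 19 CPM in both shIRE1 clones only, and EMC10 has 1 library at 158 CPM in shXBP1 clone 1 at 0 h.

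Of the membrane subunits, EMC3, EMC4 and MMGT1 (EMC5) were called lower in both shIRE1 clones at every time. EMC3, the insertase subunit, held 91.1, 97.3 and 90.9 CPM at 0 h, 73.7, 79.7 and 78.1 at 24 h, 56.7, 60.7 and 56.9 at 48 h and 54.5, 58.9 and 60.4 at 72 h in shIRE1 clone 1. EMC3 in shIRE1 clone 3 held 81.3, 76.6 and 72.6 CPM at 0 h, 67.1, 70.9 and 71.8 at 24 h, 52.6, 53.1 and 49.7 at 48 h and 52.2, 55.7 and 58.2 at 72 h. All libraries after Dox lay under all 0 h libraries of their clone. The log2 changes were -0.29 ± 0.05, -0.68 ± 0.05 and -0.69 ± 0.05 in clone 1 (largest adjusted p = 4.46e-05) and -0.16 ± 0.06, -0.60 ± 0.06 and -0.51 ± 0.06 in clone 3 (adjusted p = 0.0346, 2.81e-07 and 1.90e-06). The 24 h call of clone 3 was lost in 5 of the 6 fits that left out 1 of its libraries (adjusted p 0.053 to 0.0908), all but the fit without replicate 3 at 0 h. EMC3 in shXBP1 clone 1 gave log2 changes of -0.11 ± 0.05, -0.16 ± 0.05 and -0.18 ± 0.05 (adjusted p = 0.113, 0.0308 and 0.0167). The call at 48 h was lost without any of 4 libraries and that at 72 h without replicate 1 or 2 at 72 h. The changes in shXBP1 clone 18 were -0.03, 0.00 and -0.05 (smallest adjusted p = 0.579), the last being -0.03 without the library that went against its label.

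EMC4, a membrane subunit beside the insertase core, held 67.4, 71.1 and 70.5 CPM at 0 h, 51.9, 53.1 and 49.3 at 24 h, 37.8, 37.8 and 40.2 at 48 h and 39.5, 39.7 and 35.8 at 72 h in shIRE1 clone 1. EMC4 in shIRE1 clone 3 held 68.1, 61.1 and 64.5 CPM at 0 h, 51.8, 45.8 and 51.1 at 24 h, 37.4, 40.0 and 37.9 at 48 h and 36.6, 39.2 and 33.8 at 72 h. The Dox and 0 h groups did not overlap. The log2 changes were -0.45 ± 0.05, -0.86 ± 0.05 and -0.87 ± 0.05 in clone 1 and -0.41 ± 0.07, -0.78 ± 0.07 and -0.86 ± 0.07 in clone 3 (largest adjusted p = 3.89e-04). EMC4 fell by less in shXBP1 clone 1, from 82.0, 76.5 and 70.5 CPM to 60.9, 58.7 and 58.9 at 72 h, with log2 changes of -0.25 ± 0.06, -0.36 ± 0.06 and -0.38 ± 0.06 (adjusted p = 0.00982, 0.00123 and 6.78e-04). Its 24 h call there was lost without replicate 1 at 0 h (adjusted p = 0.0507) or replicate 3 at 24 h (adjusted p = 0.0544). Its changes in shXBP1 clone 18 were -0.06, 0.02 and -0.07, with no adjusted p under 0.538.

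MMGT1 held 104, 102 and 98.9 CPM at 0 h, 71.0, 72.3 and 66.1 at 24 h, 52.7, 54.6 and 57.2 at 48 h and 59.1, 59.4 and 57.7 at 72 h in shIRE1 clone 1. MMGT1 in shIRE1 clone 3 held 101, 98.9 and 98.3 CPM at 0 h, 69.4, 69.4 and 64.7 at 24 h, 55.0, 51.3 and 52.5 at 48 h and 54.8, 52.4 and 57.1 at 72 h. The 48 and 72 h libraries of both clones lay under 60 CPM and the 0 h libraries above 98 CPM. The log2 changes were -0.56 ± 0.05, -0.89 ± 0.05 and -0.80 ± 0.05 and -0.58 ± 0.05, -0.95 ± 0.05 and -0.90 ± 0.05 (largest adjusted p = 4.07e-07). In the shXBP1 clones it was not called, with changes of -0.14, -0.07 and -0.16 in clone 1 (adjusted p = 0.243, 0.553 and 0.176) and 0.03, -0.02 and -0.05 in clone 18 (adjusted p = 0.922, 0.888 and 0.697). The last of these was -0.00056 without the library that went against its label.

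EMC6, the other core subunit, was near the limit of the depth, at 0.226, 0.462 and 0.789 CPM at 0 h in shIRE1 clone 1 and 0.501, 0.393 and 0.505 in clone 3. Its changes there were not called (smallest adjusted p = 0.0803), with log2 values of -0.23 ± 0.39, -0.53 ± 0.41 and -0.94 ± 0.46 in clone 1 and 0.46 ± 0.46, 0.76 ± 0.44 and 0.41 ± 0.46 in clone 3. The call appeared at 72 h in clone 1 without replicate 1 at 0 h (-1.24, adjusted p = 0.019) and at 48 h in clone 3 without replicate 2 at 48 h (1.12, adjusted p = 0.0275), in opposite directions. With no filter on low counts it also appeared at 48 h in clone 3 (0.77, adjusted p = 0.0496). EMC6 in shXBP1 clone 1 went from 1.20, 1.24 and 1.02 CPM at 0 h to 0.600, 0.496 and 0.664 at 48 h and 0.669, 0.489 and 0.701 at 72 h (log2 changes -0.9991 ± 0.29 and -0.92 ± 0.28, adjusted p = 0.0202 and 0.0254). The 48 h call was lost in 3 of 6 fits that left out 1 library and the 72 h call in 5 of 6 (adjusted p up to 0.102). EMC6 in shXBP1 clone 18 held 1.05, 0.783 and 0.914 CPM at 0 h and 0.585, 0.354 and 0.461 at 72 h, and its log2 values of -0.52 ± 0.33, -0.05 ± 0.32 and -0.94 ± 0.35 were not called (adjusted p = 0.553, 0.954 and 0.106).

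Among the cytosolic subunits EMC9 fell in both shIRE1 clones, EMC2 in clone 3 and EMC8 in clone 1. EMC9 held 9.01, 11.4 and 11.8 CPM at 0 h, 6.91, 7.99 and 6.97 at 24 h, 7.40, 6.96 and 7.00 at 48 h and 6.60, 7.01 and 5.05 at 72 h in shIRE1 clone 1. EMC9 in shIRE1 clone 3 held 10.3, 9.68 and 9.28 CPM at 0 h, 7.12, 6.92 and 7.29 at 24 h, 6.21, 6.71 and 6.35 at 48 h and 6.88, 6.53 and 4.78 at 72 h. The 0 h and Dox groups did not overlap. The log2 changes were -0.58 ± 0.11, -0.60 ± 0.11 and -0.80 ± 0.12 in clone 1 (adjusted p = 1.54e-04, 1.003e-04 and 6.54e-06) and -0.48 ± 0.12, -0.64 ± 0.12 and -0.72 ± 0.12 in clone 3 (adjusted p = 0.00399, 2.82e-04 and 1.15e-04). After Dox in shXBP1 clone 1, the log2 changes of EMC9 were -0.53 ± 0.19, -0.67 ± 0.19 and -0.64 ± 0.19 (adjusted p = 0.0570, 0.0199 and 0.0237) from a 0 h group that spread over 15.5, 11.1 and 9.59 CPM. Without replicate 1 at 0 h, the library at 15.5 CPM, its changes at 48 and 72 h were -0.45 and -0.41 and were not called (adjusted p = 0.0893 and 0.111), and both calls were also lost without replicate 2 or without replicate 3 of their own time. The 24 h change was called by DESeq2 (adjusted p = 0.0309), and by edgeR with no filter on low counts (0.0129) or all 48 libraries (0.00575). It was also called without replicate 3 at 0 h or replicate 2 at 24 h (adjusted p = 0.0352 and 0.0319). The other alternatives did not call it. EMC9 in shXBP1 clone 18 had log2 values of -0.25 ± 0.12, -0.12 ± 0.12 and -0.31 ± 0.12, not called (adjusted p = 0.392, 0.633 and 0.129). The 72 h value was -0.19 without the library that went against its label (adjusted p = 0.334) and was called without replicate 1 at 72 h (-0.41, adjusted p = 0.0425).

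EMC8, the paralog of EMC9, fell in shIRE1 clone 1 from 43.3, 47.0 and 45.0 CPM at 0 h to 32.6, 37.2 and 35.6 at 24 h, 35.7, 35.4 and 35.0 at 48 h and 33.6, 36.4 and 34.2 at 72 h (log2 change -0.38 ± 0.05, -0.36 ± 0.06 and -0.39 ± 0.06, largest adjusted p = 1.44e-05). In clone 3, where it was lower at 0 h, its log2 changes were -0.09 ± 0.08, -0.12 ± 0.08 and -0.17 ± 0.08 (adjusted p = 0.346, 0.197 and 0.0691), and the 0 h and Dox groups overlapped. EMC8 in shXBP1 clone 1 went from 58.2, 50.9 and 49.7 CPM to 42.4, 41.8 and 43.3 at 72 h (log2 changes -0.41 ± 0.07, -0.30 ± 0.07 and -0.34 ± 0.07, adjusted p = 0.00130, 0.00729 and 0.00292). EMC8 in shXBP1 clone 18 had log2 values of -0.09 ± 0.10, 0.05 ± 0.10 and -0.15 ± 0.10, none called. The 72 h libraries there held 57.7, 51.4 and 40.8 CPM. The last of these is the library that went against its label, and it lay within the 40.7 to 46.8 CPM of clone 1 after Dox. Without it the 72 h log2 value of EMC8 was -0.02 (adjusted p = 0.879).

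EMC2, the cytosolic scaffold on which the complex assembles, held 60.8, 56.9 and 54.8 CPM at 0 h, 52.5, 45.2 and 45.8 at 24 h, 37.5, 38.9 and 38.3 at 48 h and 38.7, 43.0 and 46.7 at 72 h in shIRE1 clone 3. All of its Dox libraries lay under all 0 h libraries (log2 change -0.29 ± 0.08, -0.62 ± 0.08 and -0.46 ± 0.08, adjusted p = 0.00564, 3.98e-06 and 8.48e-05). In shIRE1 clone 1 the changes were 0.10 ± 0.06, -0.13 ± 0.06 and -0.08 ± 0.06 (adjusted p = 0.143, 0.0562 and 0.245). The 48 h value was called by DESeq2 (adjusted p = 0.0439), and by edgeR with RLE factors (0.0386) or a replicate block (0.0457). It was also called without replicate 3 at 0 h (adjusted p = 0.0224), and not under the other alternatives. EMC2 in shXBP1 clone 1 rose at 48 h, from 37.4, 42.3 and 41.3 CPM to 48.3, 51.8 and 49.2 (log2 change 0.28 ± 0.08, adjusted p = 0.0200). That call was lost without replicate 1 at 0 h (adjusted p = 0.0586) or replicate 2 at 48 h (adjusted p = 0.0598). EMC2 in shXBP1 clone 18 stood at 32.6, 36.2 and 51.7 CPM at 72 h, the last value being that of the library that went against its label, and no change was called (smallest adjusted p = 0.274). The 72 h log2 value was 0.24 ± 0.14 with that library and 0.02 without it.

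Of the other luminal subunits, EMC10 fell in shXBP1 clone 1 at each time and in clone 18 at 72 h, and EMC1 fell in shIRE1 clone 1 and shXBP1 clone 1 at each time and in shIRE1 clone 3 at 48 and 72 h. EMC10, a luminal subunit, held 158, 99.9 and 91.0 CPM at 0 h, 55.3, 84.1 and 65.6 at 24 h, 62.4, 44.2 and 55.1 at 48 h and 59.1, 49.4 and 49.3 at 72 h in shXBP1 clone 1. All Dox libraries lay under all 0 h libraries, among which replicate 1 stood apart at 158 CPM. The log2 changes were -0.80 ± 0.21, -1.13 ± 0.21 and -1.17 ± 0.21 (adjusted p = 0.0152, 0.00226 and 0.00164). The 24 h change was -0.50 without replicate 1 at 0 h (adjusted p = 0.0602), and its call was also lost without replicate 1 or 3 at 24 h. The 48 and 72 h calls were kept whichever library of the comparison was left out. In shXBP1 clone 18 EMC10 held 90.1, 85.3 and 83.4 CPM at 0 h, 59.1, 76.7 and 78.5 at 24 h, 60.0, 63.4 and 74.7 at 48 h and 59.7, 45.9 and 51.6 at 72 h. Its libraries after Dox again all lay under the 0 h libraries (log2 change -0.28 ± 0.12, -0.39 ± 0.12 and -0.72 ± 0.12, adjusted p = 0.304, 0.0673 and 0.00253). Without the library that went against its label the 48 h change was -0.39 (adjusted p = 0.0328) and the 72 h change -0.70 (adjusted p = 0.00353).

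In the shIRE1 clones EMC10 took another course. shIRE1 clone 3 held 54.6, 54.0 and 62.7 CPM at 0 h, 69.9, 84.2 and 81.4 at 24 h, 69.1, 65.4 and 69.5 at 48 h and 59.1, 64.7 and 43.2 at 72 h, with a rise at 24 h (log2 change 0.44 ± 0.12, adjusted p = 0.00805) and later changes of 0.22 ± 0.12 and -0.07 ± 0.12 at 48 and 72 h (adjusted p = 0.131 and 0.638). shIRE1 clone 1 held 57.5, 66.3 and 70.7 CPM at 0 h, 66.4, 70.2 and 66.1 at 24 h, 64.4, 59.1 and 52.3 at 48 h and 55.1, 54.8 and 50.9 at 72 h, with log2 changes of 0.04 ± 0.07, -0.15 ± 0.07 and -0.28 ± 0.07 (adjusted p = 0.622, 0.0766 and 0.00203). Its 72 h fall was not called when all 48 libraries shared a fit (adjusted p = 0.125). The 48 h fall was called by DESeq2 (adjusted p = 0.0372), and by edgeR with RLE factors (0.0365) or no filter on low counts (0.0423). It was also called without replicate 1 at 0 h or at 48 h (adjusted p = 0.012 and 0.00898). The other alternatives did not call it.

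The EMC10 gene lies on the plus strand of chr19:50476400-50490871 (GRCh38, GENCODE 44). The 250 bases before its RefSeq start (plus strand, GRCh38.p14) were searched, and the first 145 of them (chr19:50476257-50476401), which end 2 bases inside the annotated gene so that the last match is whole, are shown because EMC10 is the member called lower in both shXBP1 clones at 72 h. Matches on either strand are in capitals: 4 separate stretches hold TGACGT or its reverse complement, 7 matches in all since a palindromic stretch counts on both strands, and no CCACGT or ER stress response element was found. Of the other windows that could be read, that of EMC4 held 1 TGACGT and that of EMC9 held CCACGT on both strands of 1 stretch, and those of EMC1, EMC3, EMC6 and EMC8 held no match. As given above for EMC7, 7.1% and 8.37% of all such windows hold TGACGT and CCACGT. In each marked EMC10 stretch TGACGT is followed by C. Only the core TGACGT was searched, so a match is not a whole unfolded protein response element. A match is a description of these letters only.
EMC10: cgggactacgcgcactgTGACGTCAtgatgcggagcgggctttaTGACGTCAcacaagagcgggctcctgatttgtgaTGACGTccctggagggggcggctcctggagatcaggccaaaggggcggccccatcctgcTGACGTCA

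EMC1, the largest luminal subunit, fell in shIRE1 clone 1 from 167, 178 and 168 CPM at 0 h to 119, 121 and 127 at 24 h, 116, 121 and 120.0 at 48 h and 119, 124 and 121 at 72 h, without overlap (log2 change -0.50 ± 0.04, -0.53 ± 0.04 and -0.50 ± 0.04, largest adjusted p = 1.63e-09). Its log2 changes in shIRE1 clone 3 were -0.07 ± 0.05, -0.17 ± 0.05 and -0.15 ± 0.05 (adjusted p = 0.302, 0.0135 and 0.0290). The 48 h call there was lost without replicate 1 at 48 h (adjusted p = 0.0708) and the 72 h call without replicate 2 at 0 h, replicate 1 at 72 h or replicate 2 at 72 h (adjusted p 0.0538 to 0.127). EMC1 in shXBP1 clone 1 went from 175, 174 and 172 CPM to 131, 138 and 137 at 72 h (log2 changes -0.23 ± 0.04, -0.28 ± 0.04 and -0.39 ± 0.04, adjusted p = 0.00196, 5.11e-04 and 4.90e-05). The changes in shXBP1 clone 18 were -0.12 ± 0.05, -0.08 ± 0.05 and -0.11 ± 0.05, none called.

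The response to shIRE1 differed from that to shXBP1 for EMC3, EMC4 and MMGT1 at each time. It also differed for EMC2 at 48 and 72 h and for EMC1 at 24 and 48 h. In all of these the change from 0 h was lower after shIRE1. EMC10 differed at each time, with a lower change after shXBP1. The difference was tested as the mean log2 change of both shIRE1 clones minus that of both shXBP1 clones in a fit of all 48 libraries. Its p-values measure the spread between replicate cultures and leave out the spread between clones of one shRNA. At 24 h 3 of the 8 members other than EMC7 had a lower and 1 a higher value after shIRE1 (19.7% and 19.1% of the 18445 genes tested), at 48 h 4 and 1 (28.0% and 28.9%), and at 72 h 3 and 1 (27.4% and 28.0%). The differences were -0.16 ± 0.05, -0.57 ± 0.05 and -0.49 ± 0.05 for EMC3 (adjusted p = 0.00928, 9.85e-13 and 7.03e-11) and -0.28 ± 0.06, -0.66 ± 0.06 and -0.64 ± 0.06 for EMC4 (adjusted p = 1.90e-04, 2.96e-12 and 6.70e-12). The EMC3 difference at 24 h was not called for shIRE1 clone 3 against shXBP1 clone 18 alone (-0.12, adjusted p = 0.196). For EMC2 they were -0.17 ± 0.10, -0.58 ± 0.10 and -0.49 ± 0.10 (adjusted p = 0.194, 4.81e-06 and 6.17e-05). At 72 h the value of clone 1 against clone 1 alone was -0.30 and not called (adjusted p = 0.0935). EMC2 started from unequal levels, at 14.2 and 16.3 CPM per kb at 0 h in shIRE1 clones 1 and 3. In shXBP1 clones 1 and 18 it stood at 11.4 and 9.65. At 72 h the means of these clones were 13.5, 12.1, 13.4 and 11.4 CPM per kb. MMGT1 differed by -0.52 ± 0.07, -0.88 ± 0.07 and -0.75 ± 0.07 (largest adjusted p = 3.88e-08).

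EMC10 differed in the other direction, by 0.77 ± 0.15, 0.79 ± 0.15 and 0.77 ± 0.15 (adjusted p = 7.98e-05, 3.06e-05 and 5.50e-05). It was called with every library left out in turn and with either pair of clones alone. The levels at 0 h were unequal, at 6.87 and 6.05 CPM per kb in shIRE1 clones 1 and 3. In shXBP1 clones 1 and 18 EMC10 started at 12.3 and 9.14. At 72 h the means of these clones were 5.68, 5.90, 5.58 and 5.55 CPM per kb. The difference in response thus holds a difference in starting level. Levels at 0 h were not tested between the shRNAs. EMC1 differed by -0.12 ± 0.04, -0.17 ± 0.04 and -0.08 ± 0.04 (adjusted p = 0.0293, 8.76e-04 and 0.133). The EMC1 difference at 24 h had the opposite sign, 0.05, for shIRE1 clone 3 against shXBP1 clone 18 alone (adjusted p = 0.59), that at 48 h was -0.08 there (adjusted p = 0.279), and the 24 h call was lost without shIRE1 clone 3 24 h replicate 1 (adjusted p = 0.0632) or shXBP1 clone 1 24 h replicate 3 (adjusted p = 0.0531). Without the library that went against its label, EMC1 at 72 h was -0.10 (adjusted p = 0.0483) and EMC9 -0.35 (adjusted p = 0.048). With that library EMC9 differed by -0.15 ± 0.15, -0.22 ± 0.15 and -0.28 ± 0.15 and was not called (adjusted p = 0.460, 0.197 and 0.104). EMC9 at 72 h was -0.40 without shXBP1 clone 1 0 h replicate 1 (adjusted p = 0.0153), and at 48 h -0.34 (adjusted p = 0.0382). EMC8 differed by 0.00 ± 0.08, -0.12 ± 0.08 and -0.03 ± 0.08 and EMC6 by 0.72 ± 0.39, 0.63 ± 0.40 and 0.66 ± 0.43, neither called (smallest adjusted p = 0.146). The EMC8 difference at 72 h was -0.11 without the library that went against its label (adjusted p = 0.166). EMC7, without a test, differed by -2.27 ± 0.07, -2.85 ± 0.07 and -2.68 ± 0.07.

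**Figure D4:**
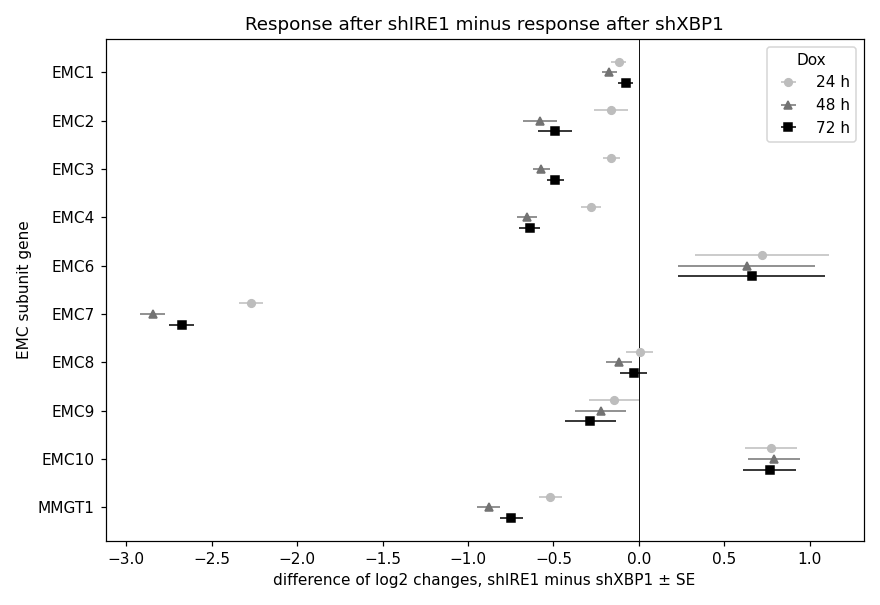
Difference of the log2 changes after shIRE1 and after shXBP1 (means of 2 clones each) at 24, 48 and 72 h, with bars of 1 SE of the fit. EMC10 lies at 0.77 to 0.79 and MMGT1, EMC3 and EMC4 lie under 0 at all times, with EMC7 at -2.27 to -2.85 shown as a description.

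Clones with the same shRNAs differed before Dox and in their response. At 0 h EMC1, EMC3 and EMC8 were higher in shIRE1 clone 1 than in clone 3, 3 of the 8 members other than EMC7, against 40.6% of all genes in either direction. The log2 differences were 0.29 ± 0.04, 0.26 ± 0.05 and 0.31 ± 0.08 (largest adjusted p = 0.00154). The library that went against its label is not part of this comparison, yet in the fit without it EMC2 was also called, at -0.22 (adjusted p = 0.02). For shXBP1, 5 of 9 members (EMC1, EMC2, EMC4, EMC9 and EMC10) were higher in clone 1 than in clone 18 and EMC7 was lower (51.3% of all genes). EMC4 differed by 0.36 ± 0.06 (adjusted p = 2.50e-06), EMC1 by 0.22 ± 0.04 (adjusted p = 6.77e-05) and EMC7 by -0.35 ± 0.07 (adjusted p = 4.14e-05). The calls of EMC2, EMC9 and EMC10 (adjusted p = 0.0484, 0.0431 and 0.0184) were each lost without shXBP1 clone 18 0 h replicate 3. Without shXBP1 clone 1 0 h replicate 1 EMC10 differed by 0.16 (adjusted p = 0.383) and EMC9 by 0.15 (adjusted p = 0.422).

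The difference in response between clones was a comparison added after the values were seen. The change of EMC1 differed between the shIRE1 clones at all times, by -0.43 ± 0.06, -0.37 ± 0.06 and -0.37 ± 0.06 (clone 1 minus clone 3, largest adjusted p = 1.54e-05). EMC2 differed the other way, by 0.38 ± 0.14, 0.49 ± 0.14 and 0.38 ± 0.14 (adjusted p = 0.0355, 0.00661 and 0.0414). Its 24 and 72 h calls were lost in 6 and 8 of the 13 fits that left out 1 library (adjusted p 0.0538 to 0.14). EMC3 differed at 72 h by -0.19 ± 0.07 (adjusted p = 0.0395), lost in 5 of 13 such fits. Thus 2, 2 and 3 of 8 members were called at 24, 48 and 72 h, where 28.2%, 30.8% and 27.5% of all genes were. Between the shXBP1 clones 0 of 9 members were called at 24 h by edgeR, with 3 at an unadjusted p under 0.05 and 1 (EMC8) called by DESeq2 and by limma. Then 4 were called at 48 h and 2 at 72 h (17.1%, 24.1% and 24.6% of all genes). At 48 h these were EMC4 (-0.36 ± 0.08, adjusted p = 0.00146), EMC10 (-0.72 ± 0.22, adjusted p = 0.0126), EMC1 (-0.19 ± 0.06, adjusted p = 0.0247) and EMC8 (-0.33 ± 0.11, adjusted p = 0.0274), all lower in clone 1. Without shXBP1 clone 1 0 h replicate 1 EMC10 differed by -0.46 (adjusted p = 0.11) and EMC8 by -0.28 (adjusted p = 0.0936). Without 48 h replicate 2 of that clone both were also not called (adjusted p = 0.0535 and 0.0683). At 72 h EMC4 (-0.29 ± 0.08, adjusted p = 0.00926) and EMC1 (-0.25 ± 0.06, adjusted p = 0.00308) were called. Without the library that went against its label EMC8 was called as well (-0.33, adjusted p = 0.0104), as it was at 24 h (-0.31, adjusted p = 0.0101). In that fit EMC9 was called at 48 h (-0.57, adjusted p = 0.0361). Between the shIRE1 clones EMC8 was not called at 24 h by edgeR (adjusted p = 0.0503), but it was by DESeq2 (0.0351), by limma (0.0336) and with RLE factors (0.0366), which made 3 members rather than 2. It was likewise called at 24 and 48 h in the fit without the library that went against its label (-0.30 and -0.25, adjusted p = 0.00995 and 0.0273).

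Other routes into the ER membrane were read from lists chosen with earlier results of these data known. The Sec61 channel and its partners (SEC61A1, SEC61B, SEC61G, SEC62, SEC63 and TRAM1) carry most secretory and membrane proteins. Of these genes 6 of 6 fell in both shIRE1 clones at each time, where 23.3% to 31.6% of all genes were lower. At 72 h the median log2 change was -0.62 in clone 1 and -0.98 in clone 3. SEC61G, the small channel subunit, changed by -1.08 ± 0.07 and -1.29 ± 0.09, and SEC63, which couples the channel to BiP, by -0.65 ± 0.05 and -0.9997 ± 0.06. After shXBP1 5 of 6 were lower at 72 h in both clones (medians -0.52 and -0.67), against 16.8% and 5.55% of all genes in clones 1 and 18. SEC61B stood at -1.30 ± 0.15 and -1.31 ± 0.11 and the channel pore SEC61A1 at -1.15 ± 0.05 and -1.16 ± 0.05 in these clones.

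The GET pathway inserts tail-anchored proteins, and 5 of its 7 genes were lower and 1 higher in shIRE1 clone 1 at 72 h (median -0.43) and 4 lower and 1 higher in clone 3 (median -0.40). BAG6, which captures tail-anchored proteins in the cytosol, changed by -0.67 ± 0.05 and -0.53 ± 0.07, and WRB, a subunit of the GET receptor, by -0.44 ± 0.06 and -0.59 ± 0.07. In shXBP1 clone 1 4 were lower and 1 higher (median -0.26), and in clone 18 edgeR called 0 (median -0.03), with 1 higher and 1 lower at an unadjusted p under 0.05. Without the library that went against its label the count in clone 18 was again 0 (median -0.10), with 1 lower at an unadjusted p under 0.05. Of the multipass translocon, which acts beside Sec61 on proteins with many helices, 6 of 9 genes were lower in shIRE1 clone 1 at 72 h (median -0.47) and 5 of 8 tested in clone 3 (median -0.34). NOMO1, NOMO2 and NOMO3 in this list are near-identical copies whose reads cannot be split with certainty. TMCO1 changed by -0.44 ± 0.04 and -1.53 ± 0.06, and TMEM147 by -0.53 ± 0.05 and -0.75 ± 0.08. In shXBP1 clone 1 4 of 8 were lower and 1 higher (median -0.26) and in clone 18 3 of 9 were lower (median -0.33), with NCLN at -1.48 ± 0.28 and -0.59 ± 0.13 and TMEM147 at -0.39 ± 0.09 and -0.38 ± 0.10. Without the library that went against its label, 1 of 9 translocon genes was lower in clone 18 (median -0.26; NCLN -0.65, TMEM147 -0.26 with adjusted p = 0.06). In the same fit 5 of 6 genes of the Sec61 list were lower (median -0.60) and 4.48% of all genes. At 72 h with all libraries, 31.1% of all genes were lower and 32.5% higher in shIRE1 clone 1, and 30.5% and 29.7% in clone 3. The shares were 16.8% and 16.8% in shXBP1 clone 1 and 5.55% and 4.41% in clone 18.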

How the data were processed

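RNA was measured in 48 libraries of AMO1 clones, made with a stranded mRNA kit and sequenced as single-end 50-base reads. The authors deposited raw counts per gene and a log2 table of TMM-scaled CPM. The submitters' processing notes list GRCh37 (hg19), GSNAP, R 4.1.3, edgeR 3.32.1 and limma 3.46.0 with no role given. Gene positions are from GENCODE 44 (GRCh38), and promoter windows from RefSeq GRCh38.p14.

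Counts were tested here with edgeR 4.0.16 in R 4.3.3 (quasi-likelihood test, TMM factors, filterByExpr with a minimum count of 10 and total of 15, Benjamini-Hochberg over all genes, threshold 0.05), per clone for Dox against 0 h and over 48 libraries otherwise. The scripts were tested on simulated data. DESeq2 1.42.0, limma 3.58.1 on the log2 table, RLE factors, no filter, other sample sets, a replicate block and leaving out each library were the alternatives. P-values measure the spread between replicate cultures of 1 clone. The members and lists were chosen with earlier results of these data known. Named were all 9 members, MMGT1, ERN1 and XBP1, from each other list up to 2 genes per shRNA with the largest 72 h change called with the same sign in both clones, and the 5 genes most like EMC7. One overlap of a member with another gene is not reported here.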

Additional observations from a re-analysis of the deposited data

Results flagged for a closer look

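Responses that differed between the shRNAs or between clones of one shRNA, by a test of the difference itself, are listed here as log2 values without an explanation. Between shIRE1 and shXBP1 (24, 48 and 72 h unless stated), EMC10 differed by 0.774, 0.791 and 0.766. EMC3 differed by -0.161, -0.572 and -0.489. EMC4 differed by -0.281, -0.655 and -0.639. MMGT1 differed by -0.518, -0.878 and -0.746. EMC2 differed by -0.577 at 48 h and -0.491 at 72 h, and EMC1 by -0.119 at 24 h and -0.174 at 48 h.

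Between the shIRE1 clones (clone 1 minus clone 3) the response of EMC1 differed by -0.429, -0.367 and -0.366, that of EMC2 by 0.383, 0.488 and 0.376, and that of EMC3 at 72 h by -0.192. Between the shXBP1 clones (clone 1 minus clone 18) the response of EMC1 differed by -0.187 at 48 h and -0.246 at 72 h, that of EMC4 by -0.361 at 48 h and -0.291 at 72 h, that of EMC10 at 48 h by -0.722 and that of EMC8 at 48 h by -0.327.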

How the results depend on the processing

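There were 1449 values of single members and MMGT1 under alternatives other than leaving out a library. Of these, 1383 kept their status, that is the same side of the threshold or, for EMC7 without a test, a small shift against its SE. Among them 13, none of them called, changed sign. A further 34 lost a call, 30 gained one, 1 reversed and 1 moved. The reversed value was EMC1 in shIRE1 minus shXBP1 at 24 h, 0.0503 for clone 3 against clone 18 only. With only the 6 libraries compared, 2 members were called in shXBP1 clone 1 at 24 h and 1 in shXBP1 clone 18 at 48 h and at 72 h. With no filter on low counts, 1 was called in shXBP1 clone 18 at 48 h, 2 in shIRE1 minus shXBP1 at 24 h, and 1 in the difference between the shXBP1 clones at 24 h and at 72 h. DESeq2 called 1 in shXBP1 clone 18 at 48 h. In shIRE1 minus shXBP1 at 24 h, 2 were called for clone 3 against clone 18 only. In the difference between the shXBP1 clones at 24 h, 1 was called with RLE factors, DESeq2 or limma. The cause was not tested.

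Replicate numbers did not pair the samples as a whole: 15 of 36 same-numbered pairs had a correlation of deviations over 0.1 (-0.881 to 0.798). All 3 pairs were over 0.1 in 1 of 12 comparisons, shXBP1 clone 1 at 72 h (0.788, 0.539 and 0.549), where 7 members were called with and without the block. With the replicate block 81 rather than 87 members were called over 23 comparisons, and 1 was called in the difference between the shIRE1 clones at 24 h and at 72 h.

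Leaving out 1 library at a time gave 2 to 6 members in shXBP1 clone 1 at 24 h, 5 to 7 at 48 h and 4 to 7 at 72 h, 0 to 1 in shXBP1 clone 18 at 48 h and 1 to 3 at 72 h, and 3 to 6 between the shXBP1 clones at 0 h. For the difference in response it gave 1 to 3 between the shIRE1 clones at 24 h and 1 to 3 at 72 h, and 0 to 3 between the shXBP1 clones at 24 h and 2 to 5 at 48 h. Depth limits EMC6 most.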
